A study of Mus musculus with 2 samples.

Results

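The genes described here are Slc7a2, Arg1, Arg2, Nos2, Ass1 and Odc1, 6 of the 32285 genes counted in leukocytes of a mouse breast tumor. They were taken by name for their roles in arginine and polyamine metabolism, and all 6 were found in both libraries. The study asked what loss of 6-phosphogluconate dehydrogenase (Pgd), an enzyme of the oxidative pentose phosphate pathway, does to tumor-infiltrating myeloid cells, for which arginase 1 and inducible nitric oxide synthase are usual markers of suppressive function. Single-cell RNA was counted in 2 libraries, 1 per genotype, each a pool of 10 female mice aged 6 to 12 weeks. The mice had received 500000 AT3 cells, a mammary tumor line from an MTAG transgenic mouse, under the skin at the mammary fat pad, and tumors were taken on day 30. Live leukocytes were sorted on CD45 according to the study's methods, while the labels also name CD11b. Mice of the library labelled WT were Pgd fl/fl, with both Pgd alleles floxed and no Cre. Mice of the library labelled 6PGDKO were Pgd fl/fl LysM Cre, which carry the same floxed alleles and Cre in the Lyz2 locus. This Cre is also active in macrophages, neutrophils and some dendritic cells (DCs), so the model is not limited to monocytes.

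Arginine enters cells through cationic amino acid transporters, of which Slc7a2 (CAT2) is the one that activated macrophages use. Arginases split it into urea and ornithine; Arg1 is the cytosolic enzyme and Arg2 the mitochondrial one. Nos2, the inducible nitric oxide synthase, uses the same arginine to make nitric oxide and citrulline, and Ass1 (argininosuccinate synthase) performs the first step that turns citrulline back into arginine. Odc1 (ornithine decarboxylase) converts ornithine to putrescine, the entry into polyamine synthesis. In tumors, myeloid cells that consume arginine are known to restrain T cells, which need it to proliferate.

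The genes lie on 5 chromosomes of the build GRCm38.p6: Arg1 at chr10:24915207-24927470, Arg2 at chr12:79130788-79156301, Nos2 at chr11:78920787-78960226, Ass1 at chr2:31470270-31520670, Slc7a2 at chr8:40862341-40922070 and Odc1 at chr12:17544808-17551502. All are protein-coding, and a unique molecular identifier (UMI) count of a gene does not tell its exons apart. RefSeq promoter sequence was at hand for Ass1 and Odc1, the members with the broadest expression. RefSeq promoter windows of 250 bases are shown 5′ to 3′ on the plus strand, from chr2:31470020-31470269 and chr12:17544623-17544872 of GRCm38.p6. The Ass1 window ends at the base before the gene start given above. The Odc1 window runs past the gene start given above, so its last bases lie inside the gene. Capitals mark the E-box CACGTG and the GC box GGGCGG on either strand (CCGCCC on the other), searched with the TATA box TATAAA and the cAMP response element TGACGTCA.
Ass1: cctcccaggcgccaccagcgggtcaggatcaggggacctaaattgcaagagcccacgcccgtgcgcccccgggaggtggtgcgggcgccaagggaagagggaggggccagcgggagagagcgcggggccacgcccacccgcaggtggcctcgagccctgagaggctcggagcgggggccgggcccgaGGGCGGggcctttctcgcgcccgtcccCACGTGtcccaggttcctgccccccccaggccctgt
Odc1: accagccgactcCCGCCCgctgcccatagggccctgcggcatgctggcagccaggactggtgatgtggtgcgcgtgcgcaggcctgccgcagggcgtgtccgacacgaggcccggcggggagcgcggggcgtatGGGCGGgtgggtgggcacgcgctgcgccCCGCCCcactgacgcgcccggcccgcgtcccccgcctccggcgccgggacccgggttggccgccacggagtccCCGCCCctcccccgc
The Ass1 window held 1 GC box and 1 E-box, which ends 30 bases before the start, and the Odc1 window held 4 GC boxes and no E-box. The E-box letters occurred in 6.02% and the GC box letters in 32.7% of 32851 mouse promoter windows of this length. Neither window held the TATA box, found in 12.4% of all windows, or the cAMP response element, found in 1.55%. GC content was 75.6% for Ass1 and 80.0% for Odc1, against a median of 52.4% over all windows. Motif matches are given as a description of the sequence.

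The libraries held 3728 (WT) and 3014 (6PGDKO) barcodes with 27245625 and 28827045 UMIs. After filtering, 3565 and 2798 cells remained, with a median of 5554 and 7926 UMIs per cell, and no barcode was shared. The cells formed 18 clusters, clustered without the 6 genes, of which 15 could be named from markers; names below mean cells like that type. Macrophages (654 and 673 cells; median 12563 and 14032 UMIs) and monocytes (130 and 338 cells; median 8740 and 9783.5 UMIs) carried the comparison of genotypes. The monocytes were 1 cluster, with 5 of 12 monocyte markers detected and Chil3, Ly6i, Cd209a and Ccl17 among its leading genes. The 12 DC markers, 1 of them at 0 in WT, summed to 474 and 434 CPM there, against 177 and 221 CPM in macrophages. Dendritic-like cells within this cluster were not told apart from monocytes. Pgd was at 106 CPM (UMIs of the gene per 1000000 UMIs) in WT and 30.7 CPM in 6PGDKO macrophages, a log2 ratio of -1.79, and at 75.6 and 29.8 CPM in monocytes, while T cells had 23.5 and 32.4 CPM. Lyz2, whose locus carries the Cre, was at 3034 and 26.3 CPM in macrophages. With 1 library per genotype there was no test of genotype. Bracketed values are exact 95% intervals (Poisson for levels, binomial for shares, conditional binomial for ratios) that cover counting error only, not the spread between mice. They are too narrow where few cells hold most of the UMIs. Fewer cells with a transcript and less transcript per cell are given apart wherever both were counted.

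The members differed widely in how many cells held them. Arg1 was found in 58 of the WT cells (1.63%) with 284 UMIs and in 89 of the 6PGDKO cells (3.18%) with 539 UMIs. Nos2 was sparser, with 43 UMIs in 30 cells and 131 UMIs in 46 cells. Arg2 was found in 123 and 181 cells and Slc7a2 in 389 and 407 cells. Ass1 was in 26.2% and 39.8% of cells, and Odc1 in 75.2% and 83.4%.

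**Figure D1:**
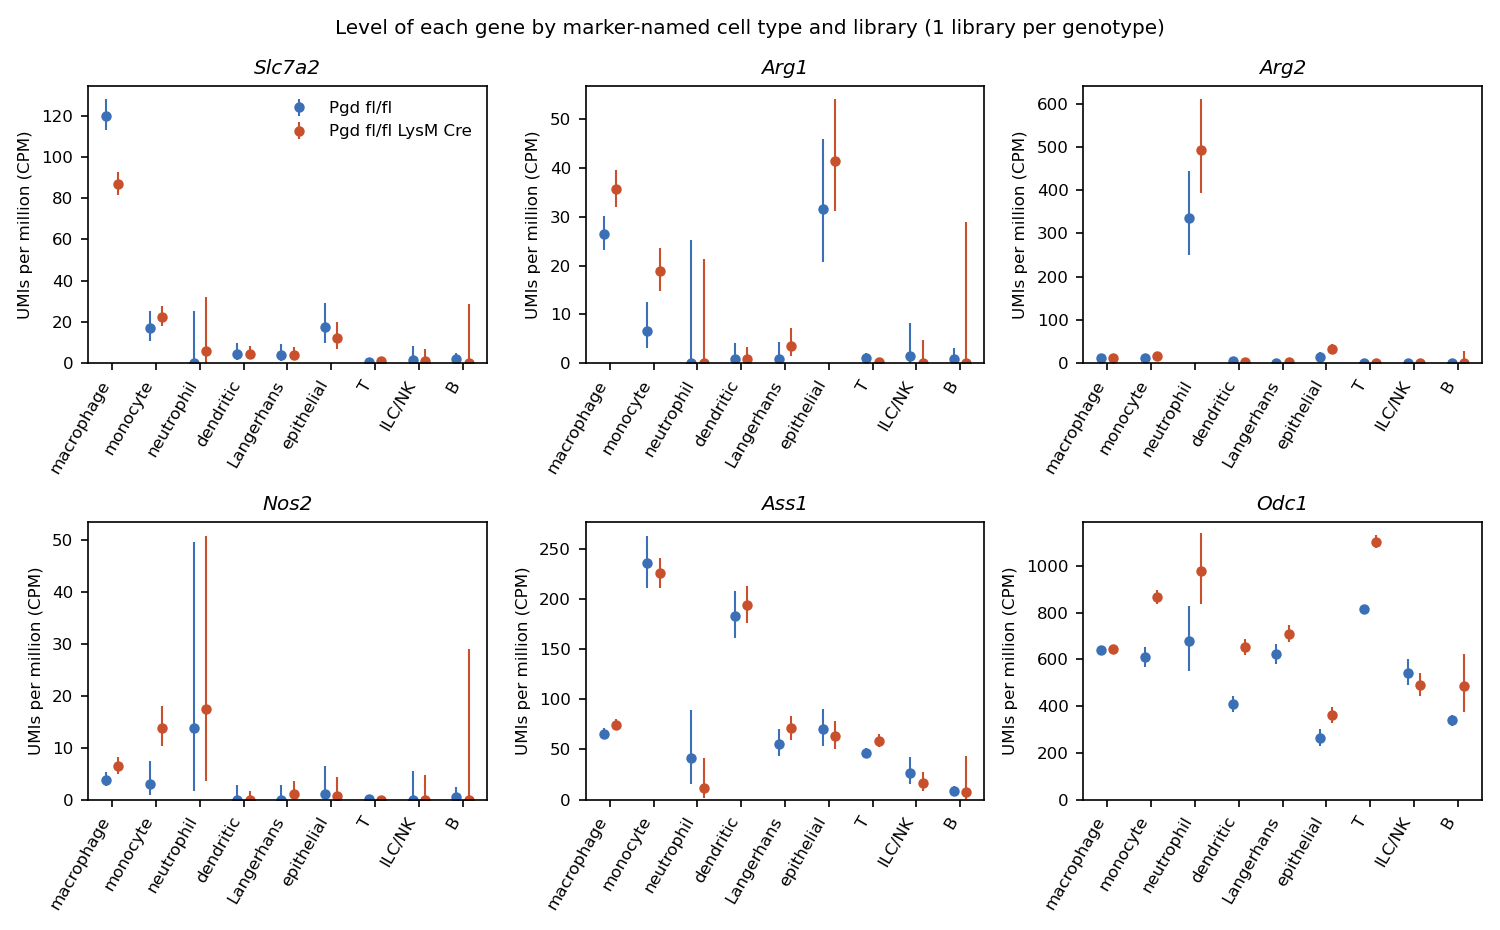
Level of each gene by cell type. The x axis lists the named cell types and the y axis gives CPM (linear, from 0); points are the 2 libraries (blue, Pgd fl/fl; red, Pgd fl/fl LysM Cre) and vertical lines are exact Poisson 95% intervals of the counting error. Slc7a2 stood highest in macrophages (120 and 86.9 CPM), Arg2 in neutrophils (336 and 493 CPM) and Ass1 in monocytes and DCs.

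Slc7a2, the transporter, was found mostly in macrophages. WT macrophages had 120 CPM [113, 128] (1038 UMIs) and 6PGDKO macrophages 86.9 CPM [81.3, 92.9] (881 UMIs), and 51.8% and 47.1% of these cells held at least 1 UMI. Macrophages contained 92.3% and 83.7% of all Slc7a2 UMIs of their library. Monocytes had 16.9 and 22.3 CPM, so that macrophages stood 7.12-fold [log2 2.24, 3.50] and 3.89-fold [log2 1.65, 2.29] above them. In T cells, which serve as a background, 0.478% and 0.909% of cells held a UMI at a median of 5290 and 6485.5 UMIs per cell. Among macrophages, the small cluster led by Retnla, Lyz1 and Fn1 had 232 CPM in 15 WT cells and 207 CPM in 49 6PGDKO cells. The large cluster led by Vcam1, Mmp13 and Apoe had 128 and 94.5 CPM, and the cluster with the cell cycle genes Birc5, Cenpf and Ccnb1 among its leading genes had 63.3 and 31.2 CPM.

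Arg1, the cytosolic arginase, lay in few cells with many UMIs each. WT macrophages held 228 UMIs in 38 of 654 cells (5.81% [4.14, 7.89]), a level of 26.4 CPM [23.1, 30.1]. The 6PGDKO macrophages held 361 UMIs in 45 of 673 cells (6.69% [4.92, 8.85]), or 35.6 CPM [32.0, 39.5]. The intervals of the shares overlap. Those of the levels do not, but they are too narrow here, since few cells hold most of the UMIs. The 5 cells with most UMIs held 50.4% of the WT and 55.7% of the 6PGDKO macrophage UMIs, and a single 6PGDKO cell held 97. The share of cells with a UMI was 0.352% in WT B cells (median 3388.5 UMIs) and 0.239% and 0.152% in T cells, types that should lack Arg1. With every cell thinned to 2500 UMIs, 2.99% of WT and 3.75% of 6PGDKO macrophages held a UMI.

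By cluster, Arg1 was highest in the Retnla Lyz1 Fn1 macrophages of the 6PGDKO library. In this cluster it was found in 5 of 15 WT cells with 95 UMIs and in 16 of 49 6PGDKO cells with 111 UMIs, at 881 and 291 CPM. The 6PGDKO value was 9.19-fold above the Vcam1 Mmp13 Apoe cluster; the WT cells were too few for the comparison. Retnla and Mrc1, genes of alternatively activated macrophages, are among the leading genes of this cluster. In the Vcam1 Mmp13 Apoe cluster, 30 WT cells held 122 UMIs and 28 6PGDKO cells held 249 UMIs. The Birc5 Cenpf Ccnb1 cluster held 11 and 1 UMIs.

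**Figure D2:**
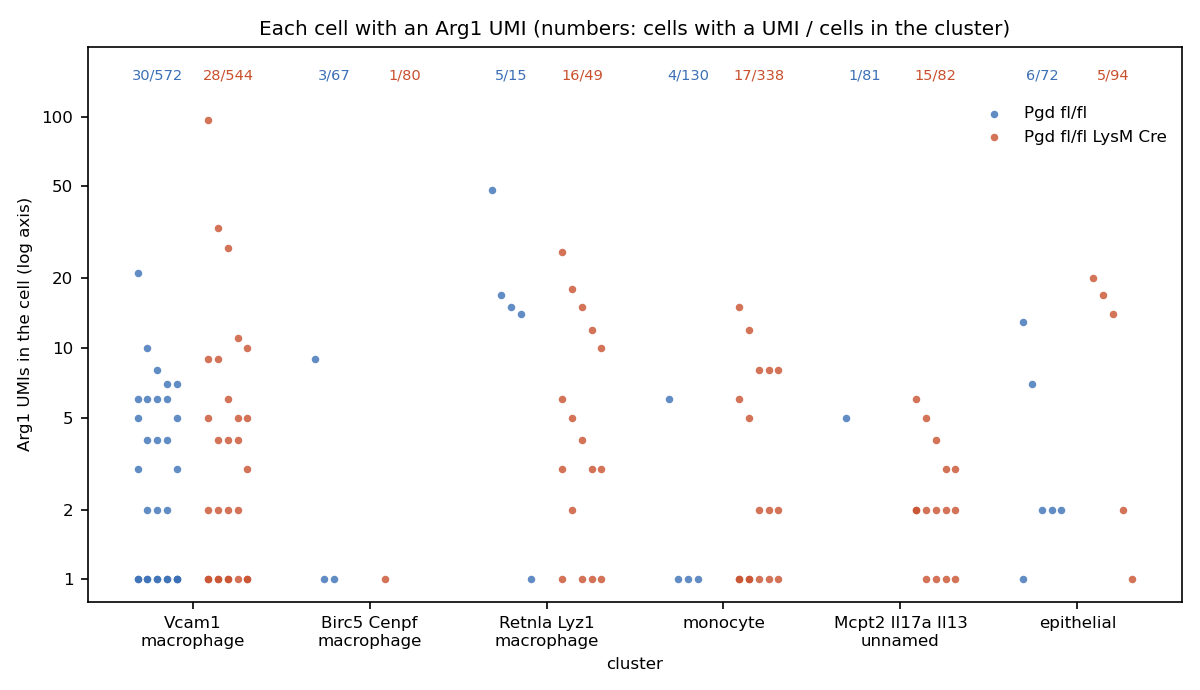
Arg1 UMIs of every cell with at least 1, in the 6 clusters with most Arg1 (x axis) and by library (blue, Pgd fl/fl; red, Pgd fl/fl LysM Cre). Each point is a cell, equal values overlapping in part, the y axis is UMIs on a log scale, and the numbers give cells with a UMI over all cells of the cluster. The highest cells hold 48 UMIs (WT) and 97 UMIs (6PGDKO).

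Outside macrophages, Arg1 was found in monocytes, in epithelial tumor cells and in an unnamed cluster. WT monocytes held 9 UMIs in 4 of 130 cells (6.61 CPM [3.02, 12.5]), of which 6 UMIs were in 1 cell. The 6PGDKO monocytes held 75 UMIs in 17 of 338 cells (18.8 CPM [14.8, 23.6]), with up to 15 in a cell. The shares of monocytes with a UMI, 3.08% [0.845, 7.69] and 5.03% [2.96, 7.93], overlap within counting error. Epithelial tumor cells, which lie outside a CD45 gate, had 27 UMIs in 6 of 72 cells and 54 UMIs in 5 of 94 cells (31.6 and 41.5 CPM, intervals that overlap those of macrophages). Neutrophils had no Arg1 UMI in 58 and 72 cells, which allows shares of cells with a UMI of up to 5.17% and 4.17% at a median of only 2243.5 and 2113 UMIs per cell.

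An unnamed cluster (81 WT and 82 6PGDKO cells) led by mast cell proteases together with Il17a and Il13 held 5 Arg1 UMIs in 1 WT cell and 37 UMIs in 15 6PGDKO cells. The level was 12.4 and 71.2 CPM. None of these 16 cells had a UMI of the mast cell genes Cpa3 and Tpsb2 or of the macrophage genes Cd68, Mertk and Trem2. All 16 held Gata3, a transcription factor of type 2 lymphocytes, 14 held Il1rl1, the receptor for interleukin 33, 15 held Il7r and 11 held Kit. Trbc2 was in 16 and Cd3g in 14 of them, but Cd3d in 4, Cd3e in 3 and Trac in 3. In the other 147 cells of the cluster, Cd3d was in 76.9% and Trac in 70.1%. Among cells of this cluster with UMIs of both Gata3 and Il1rl1, a grouping chosen after the values were seen, Arg1 was in 1 of 9 WT cells (11.1% [0.281, 48.2]) and 13 of 27 6PGDKO cells (48.1% [28.7, 68.1]). Among the remaining cells it was in 0 of 72 and 2 of 55. The 16 cells held between 1 and 6 Arg1 UMIs each.

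Arg2, the mitochondrial arginase, stood highest in neutrophils. It was found in 27 of 58 WT neutrophils (46.6% [33.3, 60.1]; 49 UMIs; 336 CPM [249, 445]) and in 39 of 72 6PGDKO neutrophils (54.2% [42.0, 66.0]; 85 UMIs; 493 CPM [394, 610]). No neutrophil held more than 6 UMIs, so the level rested on many cells, in contrast to Arg1 in macrophages. Neutrophils stood 29.0-fold and 45.8-fold above macrophages, which had 11.6 and 10.8 CPM, although their cells held fewer UMIs. Monocytes held 15 UMIs in 10 cells and 63 UMIs in 38 cells, and epithelial tumor cells had 15.2 and 32.3 CPM. No Arg2 UMI was found in the 568 WT B cells, which allows a share of cells with a UMI of up to 0.528% at a median of 3388.5 UMIs.

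Nos2 was the sparsest member. WT macrophages held 33 UMIs in 20 cells (3.82 CPM [2.63, 5.37]) with at most 4 in a cell. The 6PGDKO macrophages held 65 UMIs in 17 cells (6.41 CPM [4.95, 8.18]), of which 5 cells held 61.5% and 1 cell 14. WT monocytes held 4 UMIs in 4 of 130 cells (2.94 CPM, at most 7.52 by counting error). The 6PGDKO monocytes held 55 UMIs in 19 of 338 cells (13.8 CPM [10.4, 18.0]). The shares of monocytes with a UMI, 3.08% [0.845, 7.69] and 5.62% [3.42, 8.64], overlap within counting error. Neutrophils held 2 and 3 UMIs, and DCs held none in 97 and 138 cells, which allows shares of cells with a UMI of up to 3.09% and 2.17% by 3 counts. In T cells 1 of 1254 WT cells held a UMI and none of 660 6PGDKO cells, which allows a share of cells with a UMI of up to 0.455%.

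Ass1, which rebuilds arginine from citrulline, was shared between myeloid and lymphoid clusters. Among myeloid cells it stood highest in the DCs led by Fscn1 and Ccl22, genes of migratory DCs, with 257 CPM [222, 295] and 277 CPM [248, 307]. Monocytes followed with 236 CPM [211, 263] and 226 CPM [211, 241], intervals that overlap those of these DCs. DCs led by Xcr1 and Clec9a, genes of cross-presenting DCs, had 79.4 and 86.8 CPM, so that the Fscn1 DCs stood 3.23-fold and 3.19-fold above them. Monocytes stood 3.59-fold and 3.02-fold above macrophages, which had 65.7 and 74.7 CPM, an order opposite to that of Slc7a2. The Retnla Lyz1 Fn1 macrophages held only 1 and 2 Ass1 UMIs. Among lymphoid cells, the unnamed cluster led by Foxp3, the regulatory T cell factor, and Il1rl1 had 203 and 217 CPM, 4.33-fold and 3.69-fold above the named T cells. This cluster held 8 of 10 T cell markers. B cells had the lowest levels of the named types, 8.73 and 7.84 CPM, the latter from 1 UMI.

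Odc1, the entry to polyamines, was found in at least 47.2% of the cells of every named type and stood far highest in the same Foxp3 Il1rl1 cluster. It reached 3707 CPM [3610, 3806] in WT and 4281 CPM [4173, 4390] in 6PGDKO cells, and 97.6% and 96.5% of the cells held it at a median of only 3470 and 3483.5 UMIs. This was 4.55-fold [log2 2.14, 2.24] and 3.88-fold [log2 1.90, 2.01] above the named T cells, which had 814 and 1104 CPM. Next were the unnamed cluster with Il17a and Il13 (1822 and 1391 CPM), T cells led by Ccl20 and Csf2 (1689 and 1529 CPM) and T cells led by the cell cycle genes Pclaf and Stmn1 (1162 and 1376 CPM). T cells led by Lef1 and Tcf7, genes of naive T cells, had 357 and 386 CPM. Macrophages had 642 and 643 CPM and monocytes 608 and 867 CPM. Epithelial tumor cells were lowest among the named types, at 265 and 360 CPM.

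**Figure D3:**
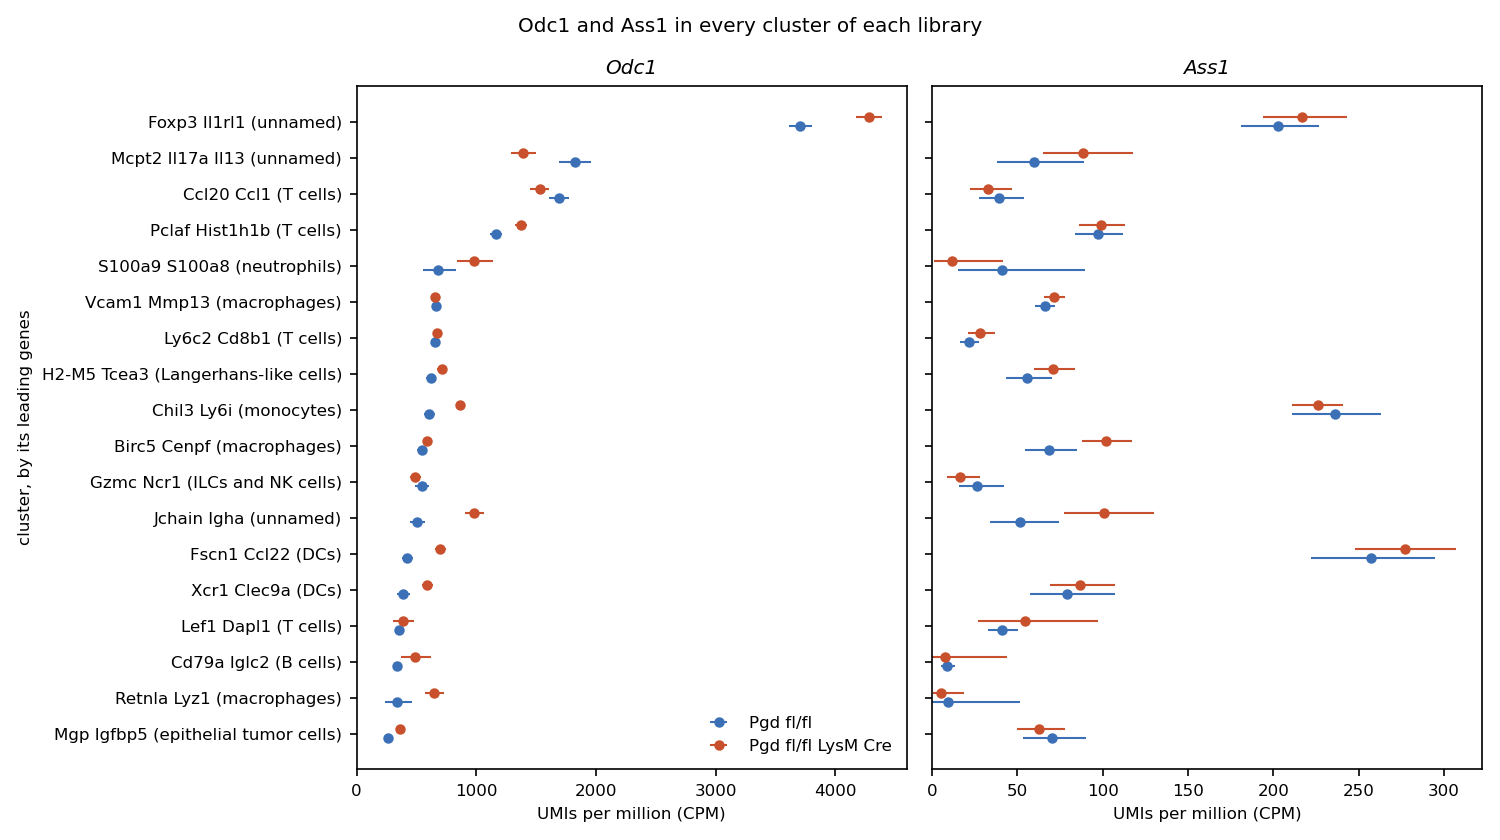
Odc1 and Ass1 by cluster. Each point is the CPM of a cluster in 1 library (blue, Pgd fl/fl; red, Pgd fl/fl LysM Cre), with its exact Poisson 95% interval as a line. The Foxp3 Il1rl1 cluster stands highest for Odc1 (3707 and 4281 CPM), while for Ass1 it lies beside monocytes and the Fscn1 DCs.

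The genotypes were compared by ratio, with a member called apart when it differed at least 2-fold and had at least 10 UMIs over both libraries. In macrophages, all 6 members had 10 UMIs, and 0 were at least 2-fold higher or lower in 6PGDKO. Over all 12851 genes with 10 UMIs there, 3.88% were higher and 2.31% lower by this rule. The median log2 ratio was 0.09 for the members and 0.07 for all genes. In monocytes, Arg1 and Nos2 were at least 2-fold higher in 6PGDKO and 0 members were lower, where 7.08% of 10727 genes were higher and 2.80% lower. The median log2 ratio there was 0.52 for the members and 0.04 for all genes. These are counts over 6 genes in 1 library per genotype.

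For the arginine transporter, the log2 ratio of 6PGDKO over WT was -0.47 [-0.60, -0.34] in macrophages, -0.44 in the Vcam1 Mmp13 Apoe cluster and -1.02 [-1.54, -0.51] in the Birc5 Cenpf Ccnb1 cluster. As a mean of the CPM over cells the macrophage ratio was -0.17. In monocytes it was 0.40 [-0.27, 1.13], an interval that holds 0, and its size and direction depended on the cells taken. Without the 5 cells of each library with most UMIs it was 2.47 (3 and 49 UMIs left). Those cells held 87.0% of the WT and 44.9% of the 6PGDKO UMIs. The ratio was -0.46 [-1.32, 0.44] without cells with lymphocyte UMIs, and -1.81 [-2.73, -0.88] in a gate chosen after seeing the data. The gate took macrophages and monocytes with a UMI of Ly6c2, a surface marker of monocytes, and none of Adgre1, a surface marker of macrophages. The 6PGDKO level in macrophages, the cells that hold most Slc7a2, was 0.723 of the WT level.

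The Arg1 ratio differed between clusters. In macrophages it was 0.43 [0.19, 0.68], but 1.02 when the CPM was averaged over cells rather than summed. Without the 5 cells of each library with most UMIs, the macrophage levels were 13.2 and 15.9 CPM and the ratio 0.27 [-0.09, 0.63], an interval that holds 0. In the Vcam1 Mmp13 Apoe cluster the ratio was 0.93 [0.61, 1.25], although the shares of cells with a UMI were 5.24% and 5.15%. A single 6PGDKO cell held 97 of the 249 UMIs there, and without the cell of each library with most Arg1 the ratio was 0.49 [0.12, 0.87]. In the Retnla Lyz1 Fn1 cluster the ratio was -1.60, with 94 of the 95 WT UMIs in 4 of 15 cells. This cluster made up 15 of 654 WT and 49 of 673 6PGDKO macrophages. In monocytes the ratio was 1.51 [0.51, 2.69], 2.89 in thinned cells and 0.38 when monocytes and macrophages were summed. The WT value rests on 4 cells, of which 1 holds 6 of the 9 UMIs. Over the Ly6c2 cells without Adgre1 it was 0.68 [-0.49, 2.08], under 2-fold and with 0 in its interval.

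The Nos2 ratio was 2.23 [0.79, 4.16] in monocytes. It rests on 4 WT UMIs, and in thinned cells it was 1.81 [-1.04, 7.26] with 1 WT UMI. Over the Ly6c2 cells without Adgre1 it was 1.38 [-0.66, 4.52] with 2 WT UMIs. In macrophages the ratio was 0.75 [0.12, 1.40], and it was -0.28 without the cells that held a UMI of lymphocyte genes such as Cd3e, Trbc2 or Cd79a. The 10 T cell markers, none of them at 0, summed to 799 and 1106 CPM in WT and 6PGDKO macrophages and to 638 and 1155 CPM in monocytes, and the 8 B cell markers to 182 and 118 CPM in macrophages and 231 and 94.5 CPM in monocytes. The 9 neutrophil markers, 3 of them at 0 in monocytes of either library, summed to 227 and 61.9 CPM there. The part of lymphocyte transcripts was examined by leaving out cells that held them, and that of neutrophil transcripts was not tested.

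For Arg2, the ratio was -0.11 [-0.51, 0.30] in macrophages, 0.52 [-0.31, 1.44] in monocytes and 0.55 [0.03, 1.09] in neutrophils. The Ass1 ratio was 0.19 [0.03, 0.35] in macrophages and -0.06 [-0.25, 0.13] in monocytes. Without cells with lymphocyte UMIs these were -0.09 [-0.33, 0.15] and -0.35 [-0.60, -0.08]. Odc1 was at 0.00 [-0.05, 0.05] in macrophages and higher in 6PGDKO monocytes (0.51 [0.40, 0.62]), DCs (0.67) and T cells (0.44). Without cells with lymphocyte UMIs, the macrophage ratio was -0.25 [-0.34, -0.16] and the monocyte ratio 0.57 [0.37, 0.77]. The monocyte ratio was 0.15 [-0.31, 0.63] at a finer clustering (resolution 1.6), where the cells named monocyte were a much smaller set (59 and 119 Odc1 UMIs). Over the Ly6c2 cells without Adgre1 it was 0.03 [-0.13, 0.20]. Odc1 was lower in the 6PGDKO cells of the Il17a Il13 cluster (-0.39 [-0.54, -0.24]).

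**Figure D4:**
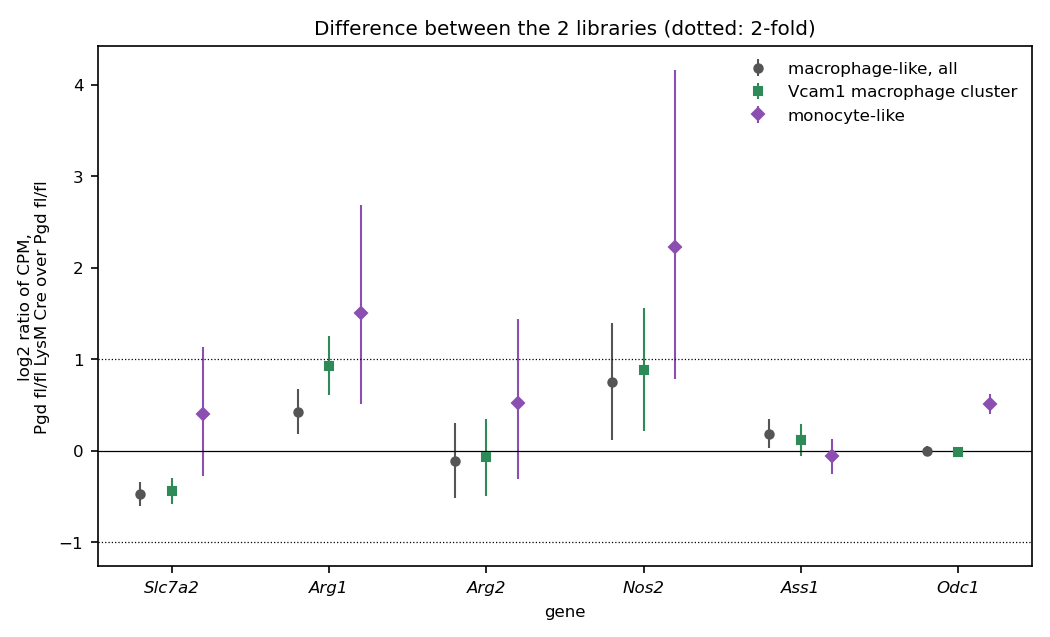
Log2 ratio of 6PGDKO over WT for each gene, in all macrophages, in the Vcam1 macrophage cluster and in monocytes. Points are ratios of CPM, lines are exact 95% intervals of the counting error and dotted lines mark 2-fold. Arg1 and Nos2 in monocytes (1.51 and 2.23) lie beyond the upper dotted line and Odc1 in macrophages lies at 0.00.

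Another 50 genes of the pathway, grouped by step, gave the setting of these values. In macrophages 38 of them had 10 UMIs, 0 were at least 2-fold higher in 6PGDKO and 2 were lower, against 3.88% and 2.31% of all genes, with a median log2 ratio of -0.02. The lower genes were the mitochondrial basic amino acid carrier Slc25a29 (10 and 5 UMIs; interval [-3.13, 0.45], which holds 0) and Ddah2 (16 and 5 UMIs), which clears methylated arginines that inhibit nitric oxide synthases. In monocytes 33 had 10 UMIs and 0 were lower, against 2.80% of all genes, with a median of 0.07.

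By step, the partner of Ass1, Asl, had 30.5 and 29.8 CPM in macrophages. Gch1, the first enzyme of the synthase's cofactor, had 44.1 and 46.5 CPM, and Oat, which turns ornithine towards proline, 46.7 and 48.2 CPM. Gatm, which uses arginine to make creatine, had 246 and 215 CPM. Azin1, which protects ornithine decarboxylase, had 85.3 and 83.6 CPM, and Oaz1, the antizyme that degrades it, 657 and 725 CPM. Sat1, the acetylase that breaks polyamines down, had 804 and 906 CPM in macrophages and 706 and 523 CPM in monocytes (log2 -0.43 [-0.54, -0.32]). Eif5a, the protein modified with the polyamine-derived hypusine, had 338 and 381 CPM in macrophages.

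Co-expression was read in cells thinned to 2500 UMIs, with the number of cells holding both genes set beside the product of their shares. In macrophages, Arg1 and Slc7a2 were found together in 10 WT cells against 4.28 by that product, and in 10 6PGDKO cells against 4.20. As sequenced the counts were 27 against 19.7 and 23 against 21.2. In 6PGDKO cells, 6 of the 10 lay in the Retnla Lyz1 Fn1 cluster, against 1.47 within that cluster, and 4 in the Vcam1 Mmp13 Apoe cluster. In WT cells, 7 of the 10 lay in the Vcam1 Mmp13 Apoe cluster, against 3.33. As sequenced, the count divided by the product within the Vcam1 Mmp13 Apoe cluster was 1.43 in WT and 0.851 in 6PGDKO cells. Arg1 and Nos2 shared 0 thinned macrophages in either library, where the product gave 0.299 and 0.413. Over macrophages and monocytes as sequenced, they shared 2 of 784 WT cells against 1.29 and 6 of 1011 6PGDKO cells against 2.21. These counts were not tested.

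Arg1 and Ass1 shared 3 thinned WT macrophages against 2.45 and 0 6PGDKO macrophages against 3.26. As sequenced the counts were 12 against 15.4 and 14 against 19.6. Within the Vcam1 Mmp13 Apoe cluster as sequenced they were 11 against 12.4 and 12 against 12.2. In thinned macrophages, Arg1 and Arg2 shared 1 against 0.598 and 3 against 0.750. Most thinned macrophages held none or 1 of the 6 genes: 165 and 309 of 635 WT cells, and 181 and 316 of 640 6PGDKO cells. Cells with 3 members numbered 32 and 21, and 2 WT cells held 4.

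Macrophages with an Arg1 UMI were compared with those without, within each library, as a description of cells chosen by their Arg1. Their median depth was 14096.5 against 12509.5 UMIs in WT and 11665 against 14158 in 6PGDKO. Slc7a2 was at 294 against 109 CPM in WT (log2 1.44 [1.19, 1.68]) and 254 against 78.3 CPM in 6PGDKO (1.70 [1.42, 1.97]); inside the Vcam1 Mmp13 Apoe cluster the values were 1.36 and 0.62. Arg2 was higher by 1.15 and 1.39, and Odc1 lower, at -0.40 and -0.23. Ass1 was at -0.60 and -0.05, and Nos2 at -0.06 [-3.17, 1.92] and 0.97 [-0.53, 2.18].

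The same cells were higher in genes of hypoxia and of lipid-associated macrophages. Of the hypoxia and glycolysis list, 9 of 10 genes were higher in WT and 10 of 11 in 6PGDKO, with medians of 1.03 and 0.79, against -0.03 and -0.09 over all genes. Egln3, an oxygen-sensing hydroxylase, was at 29.4 against 3.34 CPM in WT and 24.0 against 9.55 CPM in 6PGDKO. Bnip3, a mitophagy receptor, was at 210 against 61.8 CPM and 222 against 69.2 CPM. Of the lipid-associated list, 7 of 7 and 6 of 7 genes were higher, with medians of 1.77 and 1.29. Spp1 (osteopontin) was at 814 against 105 CPM in WT and 831 against 254 CPM in 6PGDKO. Gpnmb, a lysosomal glycoprotein, was at 133 against 23.1 CPM and 160 against 35.1 CPM. Within the Vcam1 Mmp13 Apoe cluster alone the hypoxia medians were 0.85 and 1.09 and the lipid-associated medians 1.87 and 1.19.

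The interferon gamma list had 2 of 10 genes higher in either library, with medians of -0.31 and -0.34. Of its chemokines, Cxcl10 was at 29.4 against 224 CPM in WT and 184 against 313 CPM in 6PGDKO, and Cxcl9 at 823 against 850 CPM and 68.1 against 416 CPM. Of the alternative activation list, 4 of 9 genes were higher in WT, where Chil3 had 0 UMIs in the cells with Arg1, and 9 of 10 in 6PGDKO. The medians were -0.44 (-0.15 without Chil3) and 2.36. Within the Vcam1 Mmp13 Apoe cluster, 4 of 7 and 5 of 9 were higher, with medians of 0.17 and 0.38 (0.30 and 0.53 without genes at 0 UMIs). The difference between the libraries was not tested. The chemokine Ccl24 (71.8 against 8.04 CPM; 240 against 11.8 CPM) and the mannose receptor Mrc1 (236 against 76.8 CPM; 453 against 96.4 CPM) were higher in both. The C1q list was near 0, at -0.06 and -0.15. Of the monocyte list, 4 of 5 genes were higher in WT and 4 of 6 in 6PGDKO, with medians of 0.57 and 1.31. Within the Vcam1 Mmp13 Apoe cluster, 1 of 5 and 4 of 6 monocyte genes were higher, with medians of -0.83 and 0.50. The 17 6PGDKO monocytes with Arg1 had 11 of 11 hypoxia genes higher than the other 321, with a median of 1.00, and 7 of 7 lipid-associated genes with a median of 0.86. The 4 WT monocytes with Arg1 had 6 of 10 and 4 of 6 higher, with medians of 0.35 and 0.10 (0.47 and 0.33 without genes at 0 UMIs).

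**Figure D5:**
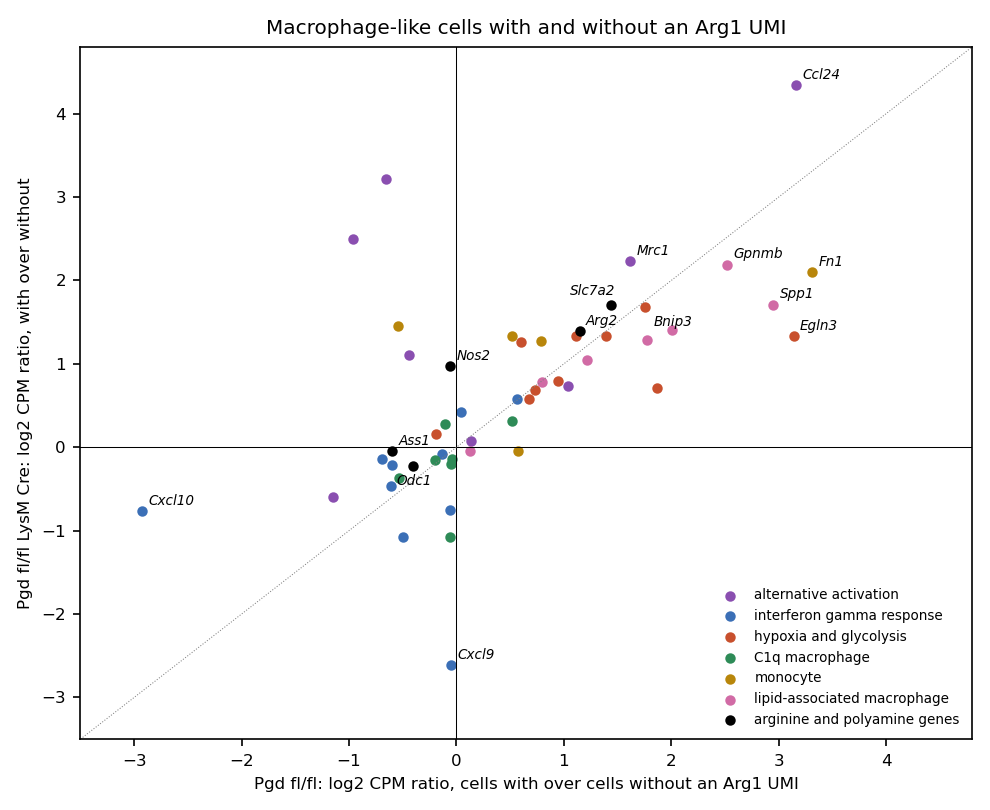
Genes of the state lists in macrophages with against without an Arg1 UMI. Each point is a gene, with the log2 ratio in WT on the x axis and in 6PGDKO on the y axis, colored by list. Spp1 (2.95 and 1.71) and Gpnmb (2.52 and 2.19) lie in the upper right, and Cxcl10 (-2.93 and -0.77) in the lower left.

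Likeness of pattern was measured by Pearson's r of log2(CPM plus 5) over 35 units, each a cluster in 1 library, against 10206 genes with at least 200 UMIs. The units share 2 libraries, so r is a description. Slc7a2 was most like Lpl (r = 0.96), the lipoprotein lipase, followed by C3ar1, Lrp1, Slc13a3 and Itga9. Arg2 was most like Wfdc21 (0.91), followed by Trem1, S100a8, Slfn4 and Hp. Odc1 was most like Hif1a (0.89), the oxygen-regulated transcription factor, followed by Crem, Tigit, Sv2c and Ttc39c. Nos2 was most like Clec4d (0.85) and Arg1 most like Pmp22 (0.86). Among the members, Nos2 and Arg2 had r = 0.79 and Arg1 and Slc7a2 r = 0.59, while Ass1 with Odc1 had r = 0.30 and Slc7a2 with Odc1 r = -0.20. Nos2, at 174 UMIs in all, lay under the 200 set for the genes compared. Both Nos2 and Arg2 stood highest in neutrophils, where Nos2 had only 2 and 3 UMIs, so the r values of Nos2 rest on few counts.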

How the data were processed

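Single-cell RNA was counted in 2 pools of sorted tumor leukocytes, 1 WT and 1 6PGDKO. The authors deposited, per library, whole UMI counts of genes and of 12 multiplexing oligonucleotides, unnormalized, made with Cell Ranger 6.1.2 on mm10 according to the submitters' processing notes. The label's own oligonucleotide (309 for WT, 310 for 6PGDKO) led in every barcode. A second oligonucleotide made up at least 10% of the oligonucleotide counts in 1865 WT and 781 6PGDKO cells of those kept. Barcodes with under 500 or over 7500 genes, or with over 15% of their UMIs mitochondrial, were removed here (379 of 6742). Doublets were not called; leaving out cells with lymphocyte UMIs or a second oligonucleotide were alternatives. Clustering used Seurat 5.3.0 in R 4.3.3 (2000 variable genes without the 6 members, 30 components, 20 neighbours, resolution 0.8). Clusters were named from fixed markers by a rule set after the clusters were seen: at least 3 markers in 25% of cells, with Langerhans markers used where no other list gave a name, checked against the 10 leading genes and a median depth not under the library median divided by 3. UMIs were summed per cell type and library and divided by the total (CPM). Python 3.11.15, numpy 2.4.6, pandas 2.3.3 and scipy 1.17.1 gave the 95% intervals. Those of the ratios were checked on simulated independent Poisson counts, which leave out the gathering of UMIs in few cells. A comparison of 2 clusters needed 20 cells in each, except for the Arg1 ratio of the Retnla Lyz1 Fn1 cluster (15 WT cells). The limit for a share of 0 is 3 counts and concerns cells with a UMI, not cells expressing the gene. The members, gene lists and comparisons were chosen with earlier results of these data known. Named genes were the members, the most abundant gene of each pathway list, any pathway gene past 2-fold, the extreme genes of each state list, and the 5 genes most alike to each member; others are named as examples chosen after their values were seen. Filtering, scaling, averaging, thinning, resolution and cell exclusions were varied. The gene most alike to Ass1 and the pathway genes higher in 6PGDKO monocytes are not reported here.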

Additional observations from a re-analysis of the deposited data

Results flagged for a closer look

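The Arg1 log2 ratio of 6PGDKO over WT stood out because it did not share a direction across clusters. It was 1.51 in monocytes (9 and 75 UMIs), 2.52 in the unnamed cluster with Il17a and Il13 (5 and 37 UMIs), -4.13 in the Birc5 Cenpf Ccnb1 macrophages (11 and 1 UMIs, 9 of the 11 in 1 WT cell) and -1.60 in the Retnla Lyz1 Fn1 macrophages (95 and 111 UMIs, 94 of the 95 in 4 WT cells). Without the cell of each library with most Arg1, as chosen after seeing the data, the ratio was 2.77 in monocytes and -1.11 in the Retnla Lyz1 Fn1 macrophages, and the other 2 clusters gave no value. The differences between these ratios were not tested, since there was 1 library per genotype.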

How the results depend on the processing

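Over 12 ratios of members, 139 alternatives gave 103 values within the counting interval of the reported ratio and 36 outside it. Separately, 12 of the 139, over 6 of the 12 ratios, had the opposite sign. The macrophage Odc1 ratio of 0.00 is not among them, although its alternatives ran from -0.25 to 0.15. The macrophage Arg1 ratio (0.43) was 1.02 as a mean of the CPM over cells, 0.87 in thinned cells, 0.70 at resolution 1.6, 0.81 without cells with lymphocyte UMIs and, as alternatives chosen after seeing the data, 0.72 without the Retnla Lyz1 cluster and, over macrophages and monocytes with Ly6c2 and no Adgre1, 0.68; without the 5 cells of each library with most UMIs it was 0.27. The monocyte Arg1 ratio (1.51) was 2.89 in thinned cells and 0.38 with macrophages added. The macrophage Nos2 ratio (0.75) was -0.28 without cells with lymphocyte UMIs. At 1.5-fold, 1 member was apart in macrophages. The causes were not tested. Monocyte ratios of Arg1 and Nos2 without the top 5 cells gave no value, since no WT UMI was left. At resolution 1.6 they gave no value either. The cells named monocyte there were a much smaller set, with 59 and 119 Odc1 UMIs against 828 and 3457 in the main clustering. With all genes clustered, no cluster was named monocyte. No paired analysis was possible because each genotype had 1 library, and no replicate could be left out. Depth limits Nos2 and the co-expression of Arg1.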
